A study of Danio rerio with 14 samples.

Results

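Rad21 binding over input was mapped in AB/PS strain zebrafish, Danio rerio, from whole embryos at 10 hours post fertilisation (hpf), the end of gastrulation. The group precipitated with 6 µg of a custom-made antibody against Rad21 (10 hpf Rad21, 2 libraries) was set against chromatin without antibody from the same stage (10 hpf Input, 2 libraries), and these are 4 of the 14 samples of a series that also followed Rad21 at 2.5 and 4.5 hpf and CTCF at 10 hpf. Each library came from 1000 pooled embryos, fixed in 1% formaldehyde and sheared in 10 cycles, and was read as 50 bp single-end reads, per the labels' protocols. The members described here are all Rad21 peaks of the 10 hpf list on chromosomes 1 to 25, which are 18075 of its 18075 rows and part of 41309 peaks in the 4 deposited lists. The authors deposited a single list for the stage, with no value per library, so no spread between replicates can be given and no difference below carries a test. In a whole embryo, a site bound in few cells and a site bound weakly in many cannot be told apart.

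Rad21 is the kleisin subunit of cohesin, the ring-shaped complex whose other core members are Smc1, Smc3 and a Stag protein. Rad21 bridges the heads of the Smc proteins and closes the ring, and its cleavage opens cohesin at anaphase. Between divisions cohesin extrudes loops of chromatin, which bring distant enhancers and promoters together, and it accumulates where extrusion is halted, often at sites of the zinc finger protein CTCF. A peak of Rad21 marks a place where cohesin stayed on the DNA in enough cells to be recovered over input.

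The list held 18075 peaks of 189 bp, together 3416 kb or 0.252% of the 1357040797 bp that the header takes as the genome. The Rad21 tags numbered 13260105, of which 448254, or 3.38%, fell into peaks, so peaks held 13.4 times the tags that their length alone would give. A peak had 24.8 tags on average, against 1.64 expected from the mean coverage, and at least 11 tags were required. The peak caller had first found 35851 putative peaks. Of these, 16425 (45.8%) were removed by the filter over input, which required 4-fold enrichment and a p of 1.00e-04. The filter over the surrounding 10000 bp removed 1351 (3.77%), and 50.4% were kept. None was dropped as clonal, which means as stacked on too few positions. The tags per bp in the header multiplied by its genome size come to 89.0% of the total, which was read as the share left with at most 1 tag per position. The header does not give the number of input tags.

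The first peak of the list lay on chromosome 16, from 29670587 to 29670775 on the Zv9 build. It stood alone, with its nearest neighbour 44.6 kb away at row 12034. The second, on chromosome 8 from 451866 to 452054, had a peak 6.35 kb away at row 665. The first 10 rows fell on 9 chromosomes. Row 3 was at 27753129 to 27753317 of chromosome 7. Row 4 was at 28868503 to 28868691 of chromosome 20, and row 5 at 51203037 to 51203225 of chromosome 8. Row 6 was at 41891137 to 41891325 of chromosome 21. Row 7 was at 6016457 to 6016645 of chromosome 24, and row 8 at 2133826 to 2134014 of chromosome 4. Rows 9 and 10 were at chromosome 2, 55796815 to 55797003, and chromosome 3, 17297510 to 17297698. These leading sites were mostly solitary. Only the second and ninth had a neighbour within 10 kb, and 5 of the 10, at rows 2, 5, 6, 8 and 9, lay in the first or last 10% of their chromosome. Over the whole list, 9.11% of the peaks lay in the first 10% and 8.18% in the last 10%. Among the first 1808 rows, 16.6% lay in either. The high share among the first 10 rows, a small count, thus did not extend to the first 1808. Row 2 lay 0.80% of the way along chromosome 8. Of the first 100 rows, 25 had a neighbour within 10 kb, against 31.2% of the whole list, and 96 overlapped a Rad21 peak of 4.5 hpf, against 2946 peaks or 16.3% of the whole list.

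Peaks were spread over the chromosomes broadly in proportion to length, with chromosome 4 farthest from it. Over the 25 chromosomes there were 13.3 peaks per Mb. Chromosome 4 had the lowest density, 9.28 peaks per Mb (exact Poisson 95% interval 8.53 to 10.1, counting error only), while the other 24 ranged between 11.95 and 16.04. Its 576 peaks were 3.19% of the list on 4.58% of the length, a ratio of 0.70 (exact binomial 95% interval 0.64 to 0.75). The other sparse chromosomes were 14, with 11.95 peaks per Mb (11.05 to 12.9), and 1, with 12.3 (11.4 to 13.2). The densest were chromosome 23, with 744 peaks or 16.0 per Mb (14.9 to 17.2), chromosome 13, with 812 or 15.01 per Mb (14.0 to 16.1), and chromosome 11, with 693 or 14.9 per Mb (13.8 to 16.0). On 18 of the 25 chromosomes the interval held the mean of all. Peak number followed chromosome length with Pearson's r = 0.85 over 25 chromosomes and 0.93 over 24 without chromosome 4. All points come from the same pair of tag sets, and no test was made.

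**Figure D1:**
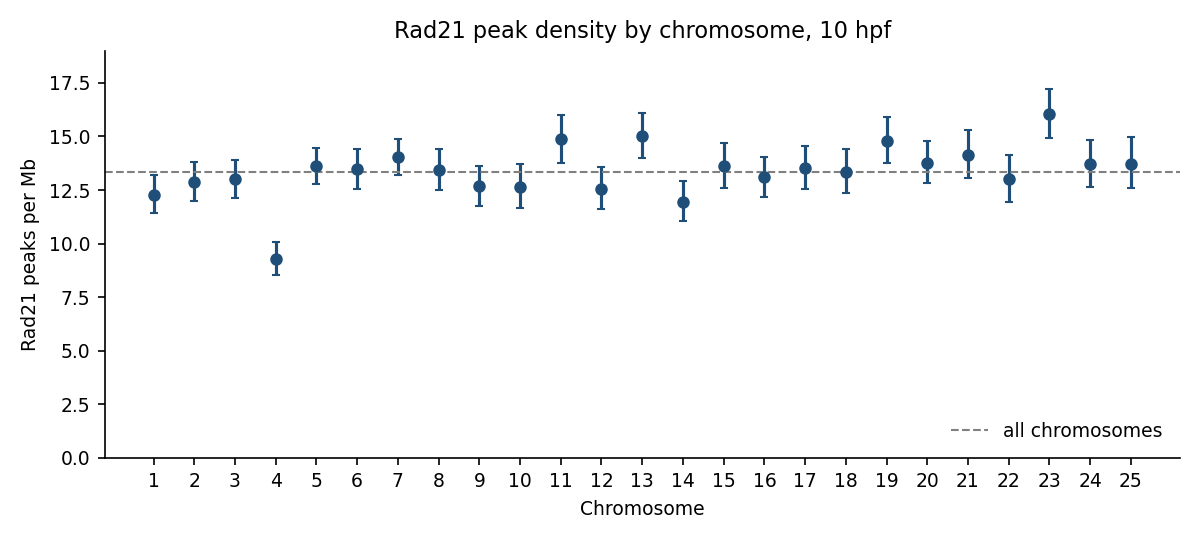
Rad21 peaks per Mb on each chromosome at 10 hpf, with exact Poisson 95% intervals (counting error only) and the density over all chromosomes as a dashed line. Chromosome 4 stands below all others at 9.28 peaks per Mb and chromosome 23 is highest at 16.0.

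The low density of chromosome 4 lay beyond 24 Mb, a boundary chosen with the density along it known. Beyond 24 Mb, in a stretch known in zebrafish for repeats and for few protein-coding genes of single copy, 140 peaks lay in 38.1 Mb, or 3.68 per Mb (3.09 to 4.34), against 436 peaks in the first 24 Mb, or 18.2 per Mb (16.5 to 19.95). The median distance between neighbouring peaks was 123 kb beyond 24 Mb and 37.1 kb before it. The first 24 Mb were thus denser than any whole chromosome. The first decile of the list held 5% of the peaks beyond 24 Mb against 11.2% of those before. For the last decile the shares were 11.4% and 13.99%. The median row was 11472.5 beyond 24 Mb and 8833 before it. The last decile begins inside a block of rows sorted by chromosome name and position, so its shares depend in part on where the cut fell. The peaks beyond 24 Mb overlapped a 4.5 hpf Rad21 peak in 23 of 140 cases, or 16.4% (exact 95% interval 10.7 to 23.6). Those before did in 68 of 436, or 15.6% (12.3 to 19.3), and the intervals overlap.

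Along the chromosomes Rad21 peaks were most dense in the middle. When each of the 25 chromosomes was divided into 10 equal bins, bins 5 and 6 held 2340 and 2288 peaks, 17.3 and 16.9 per Mb, against 1646 in the first bin and 1479 in the last, 12.1 and 10.9 per Mb. The lowest density, 10.6 per Mb, was in bin 9. Middle bins together held 1.48 times the peaks of the outer ones (4628 against 3125, exact 95% interval 1.41 to 1.55). The ratio was above 1 on 23 of the 25 chromosomes and at least 1.5 on 8. It was highest on chromosome 7, with 296 peaks in the middle bins and 102 in the outer ones, a ratio of 2.90, and was 2.49 on chromosome 17, 2.29 on chromosome 3, 2.19 on chromosome 20 and 2.16 on chromosome 23. The exceptions were chromosome 4, where the middle bins lie on the long arm and held 47 peaks against 132, a ratio of 0.36, and chromosome 11, with 179 against 180.

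**Figure D2:**
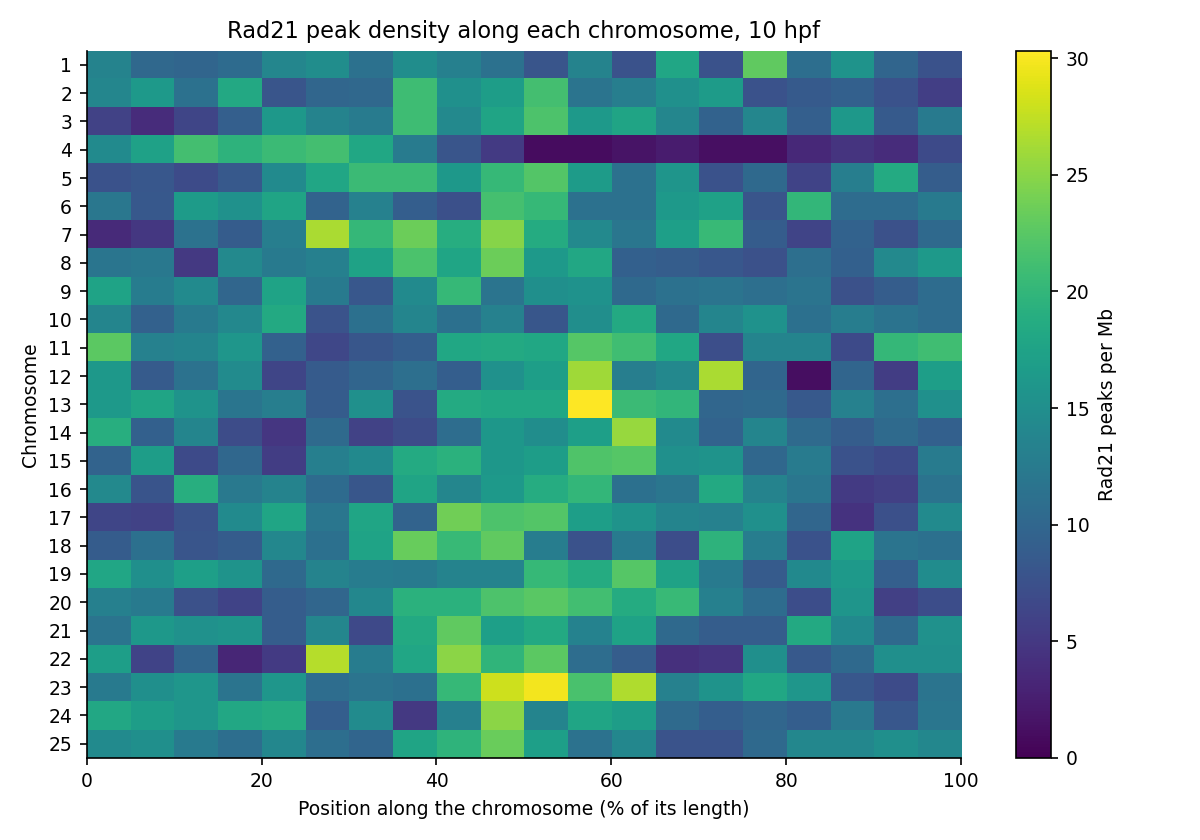
Rad21 peaks per Mb in 20 equal bins along each chromosome at 10 hpf. Many bright cells lie between 40 and 60% of the length, with the brightest single cells on chromosomes 13 and 23. Other bright cells lie outside that range, as on chromosomes 7, 12, 14 and 22. Chromosome 4 is dark beyond its midpoint.

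The low density of the outer bins did not reach the chromosome ends themselves. Within 0.5 Mb of an end there were 489 peaks, or 19.6 per Mb (17.9 to 21.4), the highest of the distances counted. Both ends shared in it, with 247 peaks in the first 0.5 Mb of the chromosomes and 242 in the last. Between 0.5 and 1 Mb the density was 13.3 per Mb, and between 3 and 5 Mb it was 10.2 per Mb (9.56 to 10.8), the lowest of the distances counted. It was 11.4 between 5 and 10 Mb, 11.6 between 10 and 15 Mb and 15.5 farther in (15.1 to 15.8). The profile thus had a narrow rise at the ends, a broad low zone behind it and a wide high zone in the interior. The far end of a chromosome was set at the last peak of any of the 4 lists, which places a peak there by construction, while the near end is the first base of the assembly. In the first Mb chromosome 14 held most, 31 peaks, and chromosome 7 fewest, 9. Peaks within 0.5 Mb of an end also overlapped a 4.5 hpf Rad21 peak more often than peaks more than 15 Mb inside, in 30.5% and 15.3% of cases.

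At the scale of 1 Mb the density varied more than counting alone would give. Over 1344 whole windows the median was 13 peaks, with quartiles of 8 and 18, and the variance was 3.64 times the mean, where independent even placement gives a ratio of 1. The 134 densest windows, 10% of them, held 19.9% of the peaks. Counts of neighbouring windows were moderately related, with Pearson's r = 0.39 over 1319 pairs that adjoin. The value was 0.22 over 1219 pairs 5 Mb apart, 0.05 over 1094 pairs 10 Mb apart and -0.13 over 844 pairs 20 Mb apart. These correlations describe windows of the same chromosomes and the same libraries and carry no test.

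The densest window, chromosome 13 from 30 Mb, held 41 peaks, with 26 and 25 in the windows before and after it. The exact Poisson interval, 29.4 to 55.6, ignores that this window was picked as the densest. Its peaks were drawn from the whole length of the list, between rows 643 and 17904, with 5 in the first decile, and they formed no run of 3 or more. The next, chromosome 5 from 34 Mb, held 39 peaks between windows of 13 each. There 61.5% of the peaks had a neighbour within 10 kb, and 4 runs of 3 or more were found. Its earliest peak was at row 71, and 6 were in the first decile. Chromosome 12 from 28 Mb and from 36 Mb, chromosome 23 from 22 Mb and from 23 Mb, and chromosome 7 from 27 Mb followed with 34 peaks each. The 2 windows on chromosome 23 adjoin and were followed by a window of 30, close to the middle of that chromosome.

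Neighbouring peaks lay a median of 40.3 kb apart, with quartiles of 15.6 and 88.8 kb. The mean was 75.04 kb and the SD 112 kb, or 1.499 times the mean, where even placement gives a ratio of 1 and, with this mean, a median of 52.0 kb. Short and very long distances were both more common than even placement gives. Distances of at most 10 kb made up 17.3% of the 18050 (exact 95% interval 16.8 to 17.9), against 12.5% by the formula for even placement. When the density of the surrounding 1 Mb was used in the formula in place of the mean, the share was 14.7%, between the 2 values. Among the classes between 1 and 500 kb the excess was relatively largest between 1 and 2 kb, with 376 distances. These were 1.59 times what even placement gives and 1.33 times what the local density gives. Below 1 kb there were 272 distances, 0.94 times what the local density gives. The formula also counts distances below the caller's minimum of 378 bp, so this class cannot be ranked with the others or show a shortfall. The caller had set 378 bp as the least distance between peaks, yet 4 distances between centres lay below it, the shortest at 338 bp. The reason was not tested.

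**Figure D3:**
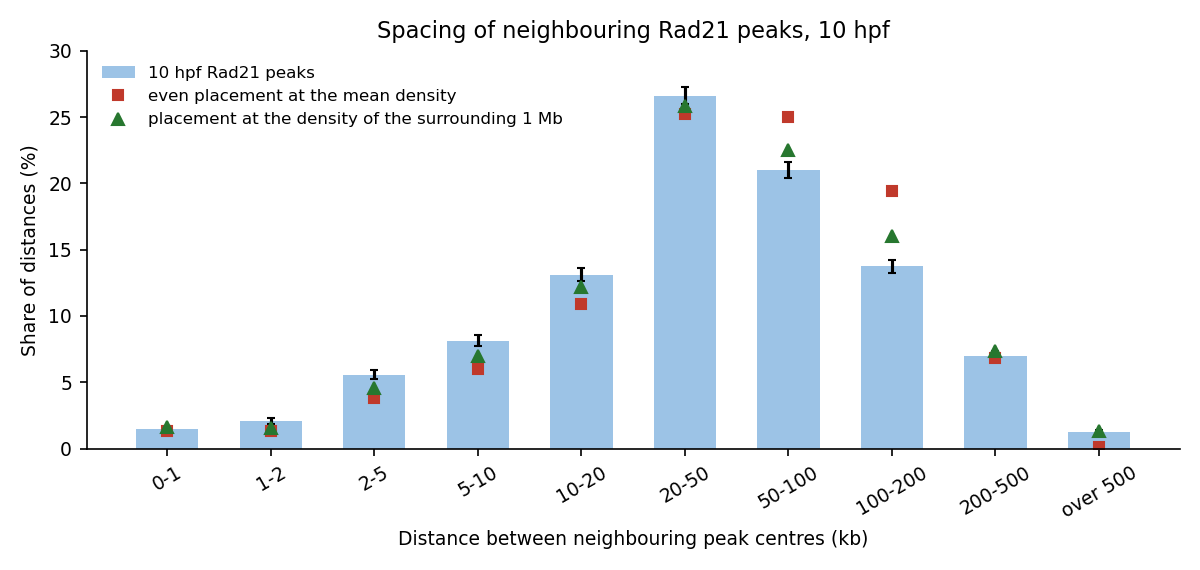
Share of the 18050 distances between centres of neighbouring Rad21 peaks in each size class at 10 hpf (bars, with exact binomial 95% intervals), beside the shares that a formula gives for even placement at the mean density (squares) and at the density of the surrounding 1 Mb (triangles). Distances between 1 and 50 kb were above both and those between 50 and 200 kb below both.

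Most peaks were solitary, but a minority stood in short runs. Another peak lay within 10 kb of 5645 peaks, or 31.2% (30.6 to 31.9). With peaks linked when their centres were at most 10 kb apart, 12430 peaks (68.8%) stood alone, 4082 formed 2041 pairs and 1563 (8.65%) formed 481 runs of 3 or more. Of the runs, 389 had 3 peaks, 76 had 4, 8 had 5, 7 had 6 and a single run had 10. Runs of 3 or more were 10.5 kb long at the median (range 1.504 to 45.9 kb), with 5.01 kb between neighbours. Every chromosome had some, between 8 on chromosome 25 and 31 on chromosome 7, and 18 lay on chromosome 4. Their peaks lay in the middle bins in 27.1% of cases, against 24.5% of solitary peaks. All were counted after the filter on the surrounding 10000 bp.

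The largest run, on chromosome 2 from 31066692 to 31112634, held 10 peaks in 45.9 kb, between peak-free flanks of 42.5 and 52.2 kb. Its peak at 31088139 to 31088327, stood at row 912 and was the one that overlapped a 4.5 hpf Rad21 peak. Another stood at row 4376, and the other 8 between rows 9646 and 17402. The run thus held 1 first-decile peak among peaks listed lower. The run on chromosome 19 from 47012942 to 47029379 was of another kind. Of its 6 peaks the first 4, within 3.84 kb of each other, stood at rows 1584, 602, 534 and 795, all in the first decile, and 3 of these overlapped a 4.5 hpf peak. Of the other runs of 6, the 3 shortest lay on chromosome 14 from 33752116 to 33767523, chromosome 6 from 50626300 to 50646144 and chromosome 21 from 28116691 to 28141625, and none of the 3 had a peak in the first decile. The 3 longer runs of 6 were on chromosome 16, where there were 2, and on chromosome 3, and 2 of these 3 had a first-decile peak, at rows 826 and 1051.

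**Figure D4:**
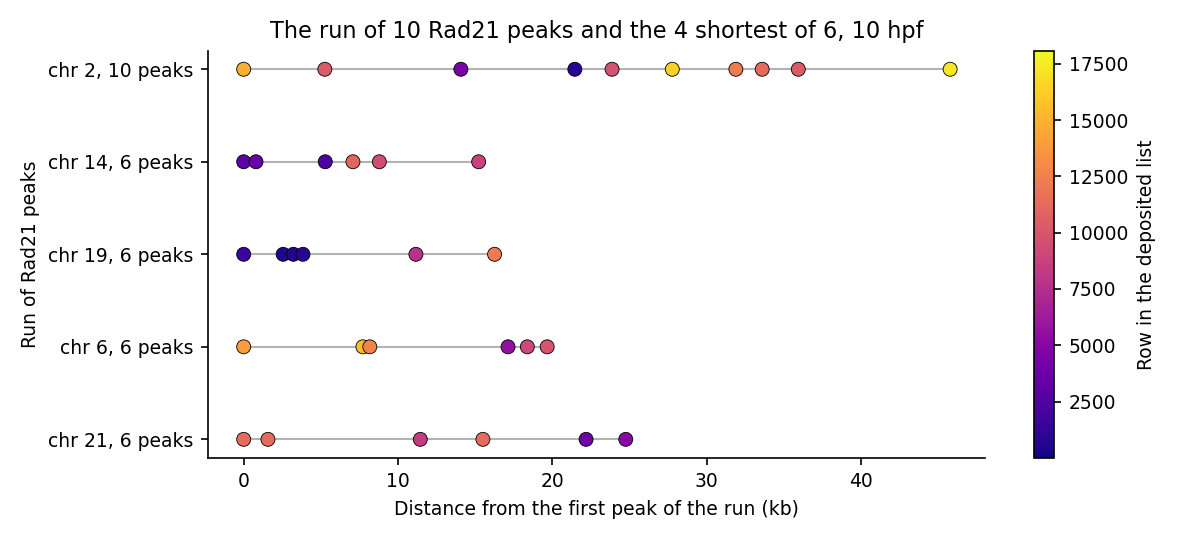
The run of 10 Rad21 peaks and the 4 shortest of the 7 runs of 6 at 10 hpf, with the distance of each peak from the first peak of its run and its row in the deposited list as colour (dark is early). Early peaks are packed at the left of the chromosome 19 run, while the 10 peaks of the chromosome 2 run are mostly late.

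Close neighbours had like places in the list, with places tied inside the blocks that the row order is made of. For peaks at most 1 kb apart the places had a Spearman's rho of 0.40 over 272 pairs, and for those 1 to 5 kb apart 0.34 over 1383 pairs, while pairs 5 to 10 kb apart had 0.04 over 1468. Among these classes the likeness was seen only up to 5 kb. All pairs were counted after the caller's filter over the surrounding 10000 bp, which removed 1351 candidates. Its part in the likeness was not tested. These are descriptions over pairs from the same libraries.

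Over the whole list, peaks in runs and solitary peaks were shared with 4.5 hpf at like rates. Of the 1563 peaks in runs of 3 or more, 250, or 16.0% (14.2 to 17.9), overlapped a Rad21 peak of 4.5 hpf, against 1997 of the 12430 solitary ones, or 16.1% (15.4 to 16.7). The difference was -0.07 percentage points (95% interval -1.97 to 1.95), and its sign depended on what counted as an overlap. Pairs were shared in 17.1% of cases (15.98 to 18.3). Of the 481 runs, 283 held no peak shared with 4.5 hpf, 154 held 1 and 44 held more, and in 5 runs every peak was shared. The intervals take peaks as independent, which neighbours are not. Within deciles of the row order the shares of peaks in runs of 2 or more were lower than those of solitary peaks in 7 of 10, including each of the first 6. They were 53.8% (49.97 to 57.7) for peaks in runs and 57.6% (54.6 to 60.4) for solitary peaks in the first decile. In decile 6 they were 6.78% (4.89 to 9.12) and 9.45% (7.86 to 11.2). The intervals for run and solitary peaks overlap in every decile. Overlap with 4.5 hpf itself fell along the list, with 56.2% in the first decile and 2.55% in the last.

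Long stretches without a peak were many. Between neighbouring peaks, 223 stretches of at least 500 kb were empty, where even placement at the mean density gives 23.05. At the density of the surrounding 1 Mb, which the stretches themselves lower, the formula gives 1.32% of all distances and 1.24% were found, 0.93 times that share. The stretches covered 161 Mb or 11.9% of the chromosomes. Chromosome 4 held 28 of them, which covered 40.2% of it, and chromosome 7 held 17, while chromosome 23 held 2. Of the 23 stretches of at least 1 Mb, 7 were on chromosome 4. The peaks that bound the stretches had a median row of 11579, in the later part of the list.

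The longest stretch, 3.66 Mb, was on chromosome 4 from 29668399 to 33332627. The next were chromosome 3 from 2007721 to 4056649 (2.05 Mb), chromosome 4 from 48351158 to 50102097 (1.75 Mb), chromosome 7 from 4340572 to 6005808 (1.67 Mb) and chromosome 22 from 28464348 to 29931447 (1.47 Mb). Then came chromosome 11 from 11890097 to 13341762, chromosome 4 from 56718805 to 58168284 and chromosome 12 from 40753519 to 42165974, each over 1.4 Mb. Chromosome 22 from 8859187 to 10123660 and chromosome 16 from 50649835 to 51906344, at 1.26 Mb each, completed the first 10. Each of these 10 stretches held peaks of the other lists. The one on chromosome 12 held 3 Rad21 peaks of 4.5 hpf and 12 CTCF peaks of 10 hpf, and that on chromosome 16 held 5 and 8, while the stretch on chromosome 22 from 28464348 held no 4.5 hpf peak, 4 CTCF peaks and 24 Rad21 peaks of 2.5 hpf. The CTCF list was called against the same 10 hpf input as the Rad21 list. The 2.5 hpf list has the format of another peak caller, MACS, and came from libraries prepared and read with other settings.

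By decile, peaks early in the list stood closer to other peaks than late ones did. Of the first 100 rows 25% were near another peak, a lower share on a small count, for which no interval was computed. The deposited score is 1 in every row, so the order of the rows was used, and no source used here says what sorted it. In the first decile 36.7% of the peaks had another peak of the list within 10 kb (exact 95% interval 34.4 to 38.9), against 20.6% in the last (18.8 to 22.6), a difference of 16.0 percentage points (95% interval 13.1 to 18.95). The deciles between ran down from 35.7% to 26.9%, except for a small rise in decile 5. The nearest neighbour was 16.1 kb away at the median in the first decile and 26.2 kb in the last. These values were taken after the caller's filter over the surrounding 10000 bp, which had removed 1351 candidates. Its part in the fall was not tested. Early peaks also lay close to one another. Counting the peaks of a decile alone, 7.52% of the first had another first-decile peak within 10 kb. This was 2.86 times what even placement of that many peaks gives, against 0.93 times in the last. The fall was not steady, with 2.46 in decile 2, 1.35 in decile 5 and 1.79 in decile 9, and no interval was computed for these ratios.

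By decile, the preference for the middle of the chromosome also weakened along the list. Among the first 100 rows only 19 peaks lay in the middle bins, against 25.6% of the whole list. That lower share rests on a small count, for which no interval was computed. The middle bins held 30.03% of the first decile (27.9 to 32.2) and 21.6% of the last (19.8 to 23.6), while the outer bins held 16.6% (14.9 to 18.4) and 18.54% (16.77 to 20.4), so that the ratio of middle to outer was 1.81 in the first decile and 1.17 in the last. The 270 peaks with no other peak within 200 kb were late. Their median row was 12274, with 3.33% of them in the first decile and 20% in the last. The 538 peaks with a neighbour at most 1 kb off had a median row of 6453. Of these, 14.7% were in the first decile and 3.72% in the last. They too were counted after the filter over the surrounding 10000 bp.

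The row order was made of blocks. Going down the list, chromosome names sorted as text and then positions ascended through 152 blocks, which held between 1 and 1648 peaks, and then started again. The largest block ran over rows 14114 to 15761, and the last 10 blocks held 8761 peaks or 48.5% of the list, against 107 blocks within or reaching into the first 1000 rows. Within a block the order thus followed the genome, and row numbers inside a block carry no rank of their own. Among the last blocks the share with a neighbour within 10 kb was lower, with exceptions. It was 36.5% in the block of 757 from row 9315, after 32.1% in the one before, and 29.3% in the block of 1224, after 28.1%. It was 27.6% in the block of 1648, 24.2% in the next, of 1193, 19.6% in the block of 915 after that, 14.4% in the block of 195 and 18.2% in the last, of 11.

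The identifiers of the peaks had gaps. They number the peaks of each chromosome, and their highest values, from 967 on chromosome 25 to 2176 on chromosome 7, sum to 35772, or 99.8% of the 35851 putative peaks. In the 4.5 hpf Rad21 and the CTCF list the same sum reached 99.5% and 99.8% of the putative peaks, and the identifiers were therefore read as numbers of putative peaks, which the header does not state. On this reading chromosome 4 kept 44.3% of its candidates (exact 95% interval 41.6 to 47.0), the least of any chromosome, against a median of 50.7% and a highest share of 54.6% (51.4 to 57.8) on chromosome 25. Chromosome 4 also had the lowest density of candidates, 20.95 per Mb against a median of 26.1 and 33.3 on chromosome 23. Numbers followed the row order with a median Spearman's rho of 0.97 within chromosomes.

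Most removed candidates had high numbers. Of the lowest 10% of the numbers on each chromosome, 93.2% were present in the list (92.3 to 93.98), then 86.8% of the next 10% and 70.5% of those after, down to 24.4% and 28.4% in the last 2 classes. On chromosome 4 fewer of the lowest 10% were present, 102 of 131 or 77.9% (69.8 to 84.6). Number 1 itself was present on 20 of the 25 chromosomes. On chromosomes 5, 10, 11, 15 and 17 the lowest numbers present were 2, 3, 3, 3 and 4, and on chromosomes 7 and 10 only 5 of the first 10 numbers were present. Which filter removed a given number is not recorded in the rows.

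**Figure D5:**
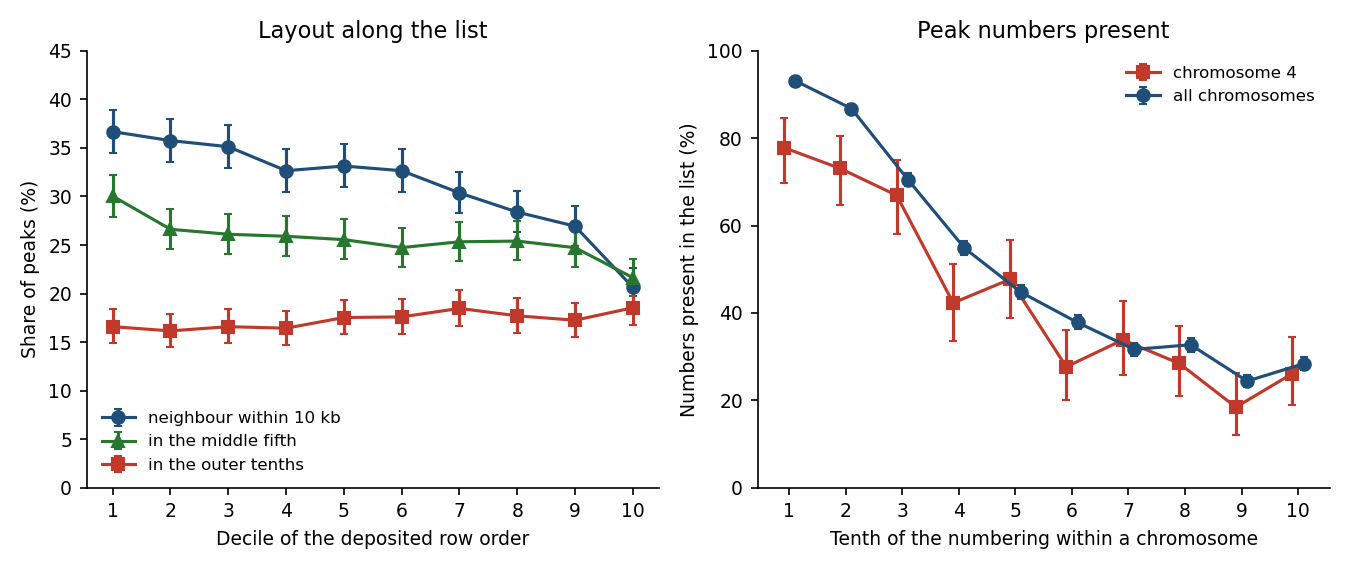
Left, share of 10 hpf Rad21 peaks with a neighbour within 10 kb, in the 2 middle and in the 2 outer bins of 10 along the chromosome, by decile of the deposited row order. Right, share of peak numbers present in the list in 10 classes of the numbering, for chromosome 4 and for all chromosomes, with exact binomial 95% intervals in both panels; the neighbour share runs from 36.7 to 20.6% and the numbers present on all chromosomes from 93.2 to 28.4%.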

How the data were processed

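Chromatin immunoprecipitation with sequencing was analysed from peak lists. The submitters' processing notes name Bowtie2 2.2.1, Zv9 and HOMER. Per the file headers, the 10 hpf Rad21 list was called with HOMER findPeaks from 1 Rad21 tag directory against 1 input directory, with a 0.001 false discovery threshold and 4-fold over both input and 10000 bp. These were taken as pools of both libraries, which the header does not state. The deposited score is 1 in every row and was not used. Positions are 1-based, and a chromosome ends at the largest end over the 4 lists. With Python 3.11.15, pandas 2.3.3, NumPy 2.4.6 and SciPy 1.17.1, centres were compared within 10 kb, in windows of 1 Mb, in 10 bins along the chromosome and by row, after functions were checked on planted layouts. Even placement gives a share of distances up to d of 1 minus the exponential of minus d over the mean distance. Overlap meant at least 1 bp. Intervals are 95%, exact binomial or Poisson, cover counting error only and take peaks as independent. Those of a difference between shares combine the distances to the exact limits of both shares, as the root of their summed squares. Overlaps with CTCF peaks, whose list shares the 10 hpf input, are not given. Described regions were the first 10 rows, densest windows, largest runs, longest empty stretches, and densest and sparsest chromosomes. Members and lists were chosen with earlier results of these data known. Peak sequences and nearby genes were not used here, since no Zv9 sequence or annotation was at hand.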

Additional observations from a re-analysis of the deposited data

How the results depend on the processing

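Of 31 alternative values computed for 10 results, 19 kept their direction and stayed within the interval of the main value or within 1.5 times the main count, 10 moved further, and 2 changed sign within the interval. The 19 included all those on chromosome length, merging within 1 kb, windows and leaving out chromosome 4. Settings of distance moved counts by construction. The share with a neighbour was 17.5% within 5 kb and 50.7% within 20 kb, against 31.2% within 10 kb, and runs of 3 or more numbered 137 and 1140, against 481. With the first 50% of the row order, which leaves fewer peaks, the share with a neighbour was 23.1%, runs numbered 136, empty stretches 528 against 223, and the middle bins held 1.61 times the outer ones against 1.48. The fall in neighbour share from the first to the last decile, 16.0 points, was 12.54 points by the rank in the identifier and 12.4 points between quintiles, and 15.2 points with whole blocks of rows, an alternative chosen after seeing the data. The difference between run and solitary peaks in overlap with 4.5 hpf, -0.07 points, became 0.48 points when 95 bp of overlap were required and 0.28 points with centres within 500 bp, all within its interval. No paired analysis was possible because the list gives no value per library, and for the same reason no library could be left out. The 11 tags required at 13260105 tags in all limit which sites could be listed.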

Other observations

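The distribution along the chromosome differed in value between the lists. Middle bins over outer bins gave 1.48 in the 10 hpf Rad21 list (exact 95% interval 1.41 to 1.55). It was 1.12 in the 4.5 hpf list (1.05 to 1.21) and 0.89 in the CTCF list (0.84 to 0.93), which was called against the same input as Rad21 at 10 hpf. The lists differ in number of peaks, and the difference was not tested. Within 0.5 Mb of a chromosome end the 10 hpf Rad21 list had 19.6 peaks per Mb against 13.3 over all chromosomes, the 4.5 hpf list 11.8 against 5.27, and the CTCF list 16.6 against 10.4. Each list was denser there than over the whole.

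The 223 empty stretches of the 10 hpf Rad21 list held 229 Rad21 peaks of 4.5 hpf, 1.42 per Mb against 5.27 over all chromosomes, and 873 CTCF peaks, 5.42 per Mb against 10.4. A peak of another list that overlaps a 10 hpf Rad21 peak cannot lie in a stretch, except at its very edge. Of the 10 hpf Rad21 peaks, 2946 overlapped a 4.5 hpf peak. The lower densities of 4.5 hpf Rad21 and CTCF were thus in part fixed by how the stretches were defined. The stretches held 579 Rad21 peaks of 2.5 hpf, 3.59 per Mb against 1.48, of which 339 lay off chromosome 4. The 2.5 hpf list has the format of another peak caller, MACS. Its libraries also differed from the others in embryos pooled, shearing cycles and read length. Its higher density in the stretches therefore cannot be told apart from these differences and was not tested. In 94 of the stretches there was no 4.5 hpf peak, in 20 no CTCF peak, and 4 held no peak of any of the other lists.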
